A study of Homo sapiens with 12 samples.

Results

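The genes described are 9 subunits of Polycomb repressive complex 1 (PRC1), namely CBX2, CBX6, CBX7 and CBX8 of the chromodomain subunits, the RING finger pair partners BMI1 and PCGF2, the ubiquitin ligases RING1 and RNF2, and PHC1. They were chosen by name, as CBX and core subunits of the complex, and make up 9 of the 58302 genes in the count tables. PRC1 places ubiquitin on histone H2A through RING1 or RNF2, which works in a pair with a PCGF protein such as BMI1 or PCGF2. In its canonical form, a CBX protein binds the methylated lysine 27 of histone H3 (H3K27me3) that Polycomb repressive complex 2 (PRC2) writes, and a PHC protein lets complexes join with each other. UTX (KDM6A) and JMJD3 (KDM6B) remove H3K27me3, so the CBX subunits read the mark that these enzymes erase. In neural progenitors, PRC1 is known for holding lineage genes and the CDKN2A and CDKN2B locus silent, and its CBX subunits are exchanged as stem cells differentiate.

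RNA was sequenced from neural progenitor cells (NPCs) and their progeny derived from H1, an established human embryonic stem cell line, in 12 samples that form 6 groups of 2. WT cells carried both demethylases, and dKO cells were H1 cells in which the catalytic JmjC sites of both UTX and JMJD3 had been deleted. Each genotype was sampled as NPCs at passage 2, as NPCs at passage 4, and after 28 days of differentiation from passage 2 NPCs (WT-D28 and dKO-D28), for which FGF2 and EGF were withdrawn and, by the study's methods, GDNF, BDNF and cAMP were added. The labels name passage 4 only, and passage 2 comes from the study's text. All 6 groups share the H1 background and neural induction with SMAD inhibitors. The labels name no clone and no batch, and nothing says that the 2 samples of a group came from separate cultures, so p-values measure the spread between these samples, which may be technical.

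Total counts lay between 756942 and 1438807 in the passage 2 samples, between 3174410 and 4220037 at passage 4, and between 4082248 and 10601172 at D28. In a library, 3 counts correspond to 0.283 CPM (counts scaled to the library size) at the highest total and to 3.96 CPM at the lowest, for counting error alone. At passage 2, the targeted gene KDM6A stood at 54.4 and 61.4 CPM in the WT samples and at 38.9 and 39.8 CPM in the dKO samples, and KDM6B at 157 and 184 against 155 and 159 CPM. In dKO cells KDM6A was lower at passage 4 (log2 fold change -0.81, adjusted p = 0.00691), with -0.038 at D28 (adjusted p = 0.89), and KDM6B was higher at passage 4 (0.61, adjusted p = 0.00022) and lower at D28 (-0.40, adjusted p = 0.00387). The counts cover whole genes, so they do not check a deletion of catalytic exons. The defining progenitor genes SOX2 and PAX6 were detected in each group, with PAX6 at 11.7 and 11.9 CPM in WT-D28, where the astrocyte gene GFAP was at 14.9 and 18.2 CPM. Some libraries stood apart from their labels or from each other. WT NPCs at passage 4 carried neuronal genes at 5691 and 6333 CPM summed over the neuron list, against 1332 and 1546 CPM in WT NPCs at passage 2 and 4532 and 4538 CPM in WT-D28, and NEUROD6 was at 365 and 379 CPM there and at 0 in the other 10 samples. The 2 dKO-D28 samples differed from each other more than any other pair, with a chi-square of 12.5 per degree of freedom against 1.63 to 2.90 in the other 5 groups. Their list of neural crest genes summed to 17.7 and 112 CPM. PAX3, TFAP2A and TFAP2B carried this sum, with SOX10 at 0.24 and 0.39 CPM and FOXD3 at 0 in both dKO-D28 samples. For the members, each comparison that involves dKO-D28 was therefore also computed with either of these samples left out. The counts of the other lists at D28, the values of EZH2, the sums of marker genes, the shares and the ratios were not recomputed in this way. Leaving out a sample leaves 1 in its group, so the test takes its spread from the other groups. A call kept in such a fit says nothing about the spread within the reduced group. Both samples of WT NPCs at passage 4 show the neuronal genes, so no value without them exists.

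Of the 9 genes, 7 could be tested and 2 could not be measured in these tables. RING1, the ligase subunit in the histocompatibility region of chromosome 6 (ENSG00000204227; hg38 chr6:33208500-33212722, plus strand), had 0 counts in each of the 12 libraries. PCGF2, also known as MEL18 and the closest relative of BMI1 (ENSG00000277258; chr17:38733898-38749817, minus strand), had 10 counts in all, and no library had more than 6. In hg38 with its alternate contigs, each of the 55 exon windows of 75 bases tried for RING1 occurred a second time on an alternate contig, on 5 contigs in all, and so did each of the 110 windows of PCGF2, on 1 contig. None of the windows of CBX2, CBX6, CBX7, CBX8, BMI1 or RNF2 did. Each of the following coding windows is shown because an identical copy stands on at least 1 alternate contig; the first lies at chr6:33211308-33211382 and the second at chr17:38735473-38735547, both given on the strand of the gene.
RING1: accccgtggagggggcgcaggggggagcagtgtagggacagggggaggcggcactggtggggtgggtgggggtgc
PCGF2: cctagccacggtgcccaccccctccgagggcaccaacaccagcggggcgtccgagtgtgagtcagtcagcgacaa

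Other genes in the same position, picked after their counts were seen, had few or no counts as well. RPL23, set beside them, was picked in the same way. The counts of all genes with such copies were not surveyed, so these examples give no rate. RPS18, a ribosomal protein gene of the same region as RING1, had 23 counts over the 12 libraries, and each of its 66 windows had a copy on an alternate contig. PSMB3 and EPOP, which lie near PCGF2, had 0 counts with 32 of 32 and 128 of 128 windows on an alternate contig. RPL23, another ribosomal protein gene of chromosome 17 with 0 such windows, had 26833 counts. Whether the index used for alignment held the alternate contigs is not given in the sources used here, and a part of such copies in the missing counts was not tested. For RING1 and PCGF2 no level is therefore reported.

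**Figure D1:**
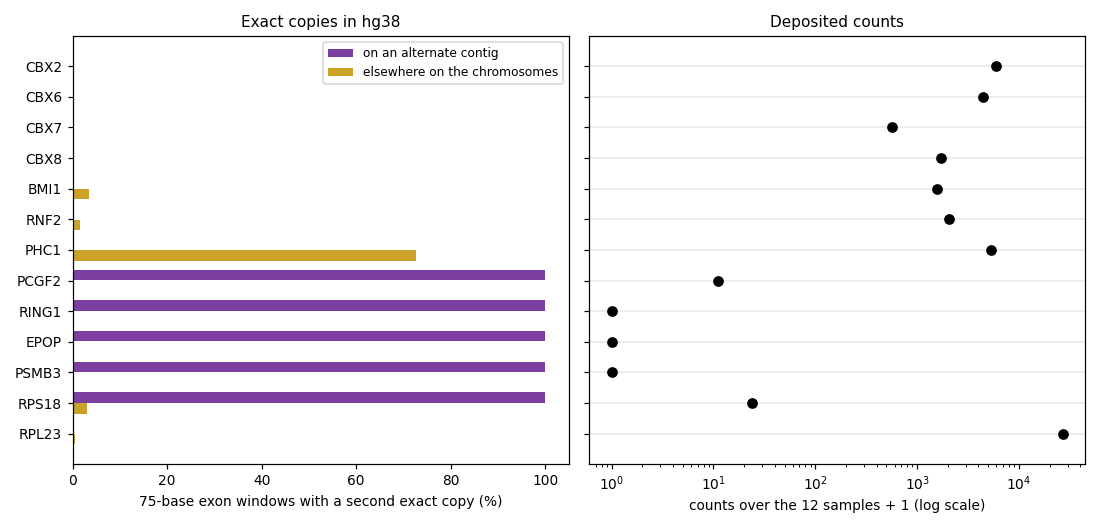
Left, the share of 75-base exon windows (%) with a second exact copy in hg38, on an alternate contig (purple) or elsewhere on the chromosomes (yellow). Right, the counts of the same genes summed over the 12 samples plus 1, on a log scale; RING1, EPOP and PSMB3 sit at 0 counts with 100% of windows on an alternate contig.

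PHC1, which carries the SAM domain that joins complexes (ENSG00000111752; chr12:8913896-8941467, plus strand), was counted but is uncertain. Of its 205 exon windows, 149 (72.7%) had a second copy within the pseudogene PHC1P1 at chr12:55409713-55415143, and M6PR overlaps it on the opposite strand. PHC1 had 108 and 307 CPM in the 2 WT samples at passage 2, and 252 and 46.0 CPM in the 2 dKO samples. No other tested member showed such a spread within a group. In these 4 libraries PHC1P1 lay between 20.9 and 32.5 CPM and M6PR between 115 and 165 CPM, so neither moved by as much. In the other 8 libraries PHC1 lay between 68.5 and 118 CPM. The standard error of its log2 fold change was 0.67 to 0.75 in the comparisons of 2 groups, and no comparison reached an adjusted p below 0.05. The direction of the passage 2 comparison turned when 1 sample was left out, from -0.55 with the 4 samples to 0.45 without WT sample 2 and 0.22 without dKO sample 2.

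The other 6 genes were expressed in each library. CBX2, a chromodomain subunit that also compacts chromatin (ENSG00000173894; chr17:79778148-79787983, plus strand), lies just before CBX8 (ENSG00000141570; chr17:79792132-79801683, minus strand). CBX6 (ENSG00000183741; chr22:38861422-38872249) and CBX7 (ENSG00000100307; chr22:39120167-39152680) lie on the minus strand of chromosome 22. CBX7 is known as the main CBX subunit of undifferentiated stem cells. BMI1 (ENSG00000168283; chr10:22321099-22331484, plus strand), the PCGF partner that sustains self-renewal of neural stem cells, lies within the readthrough gene COMMD3-BMI1, which had 0 counts. How reads that fall on both genes were counted is not given, so this does not show the readthrough to be absent. Whether it affected the counts of BMI1 was not tested. RNF2, also known as RING1B and the other catalytic ligase subunit, is ENSG00000121481 at chr1:185045526-185102603 on the plus strand.

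Per kilobase of exon, CBX2 was the highest of the 6 genes in each group, with mean levels of 16.3 CPM per kb in WT NPCs at passage 4 to 32.8 CPM per kb in dKO-D28. CBX7 was the lowest in each group, at 0.963 to 2.09 CPM per kb. The order of the groups differed between genes. CBX2 was highest in dKO-D28, where its 2 samples had 165 and 207 CPM and overlapped those of dKO NPCs at passage 2. CBX6, CBX8 and BMI1 had their highest mean in WT-D28, and for CBX6 and CBX8 both samples there lay above those of each other group. RNF2 had its lowest mean in WT-D28, with 33.1 and 34.6 CPM, below the lowest sample of each other group. The share of all genes whose WT-D28 samples lie above or below those of each other group was not computed, so these separations are descriptions only. The plot of levels by sample shows the 7 tested genes.

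**Figure D2:**
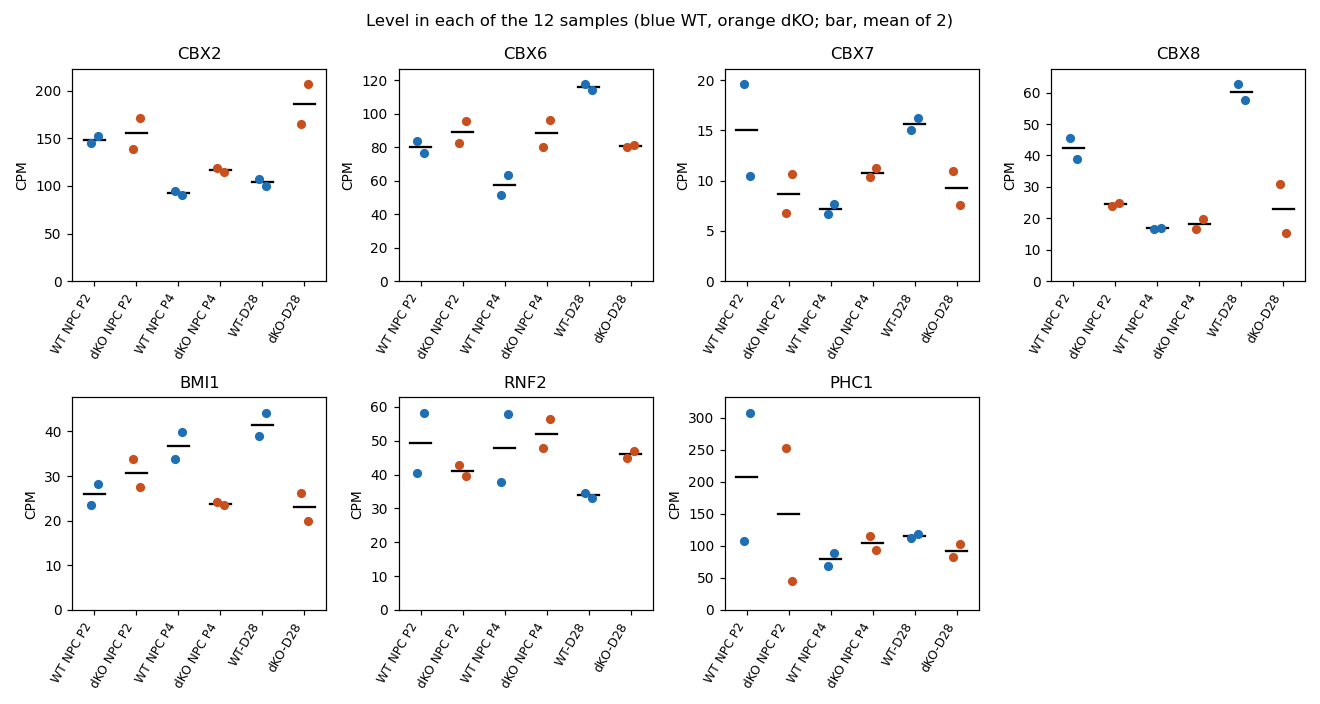
CPM (vertical axes, linear from 0) of the 7 tested members in each of the 12 samples, by group; points are samples, blue for WT and orange for dKO, and bars are means of 2. CBX6 and CBX8 were highest in both WT-D28 samples, and PHC1 differed within both passage 2 groups.

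Promoter sequence from RefSeq (GRCh38.p14) was at hand for 7 of the 9 genes, as 250 bases before and 50 after a start site. In all, 4 letter patterns were searched on both strands, the E-box CACGTG, the YY1 core CCATNTT, and the E2F forms TTTCCCGC and TTTGGCGC. Among 35116 promoters of the same length, 7.26%, 15.58%, 1.63% and 0.65% held them. BMI1, CBX6 and RNF2 held CCATNTT, BMI1 and CBX6 held CACGTG, and the entries of CBX7, PCGF2, PHC1 and RING1 held none of the 4. BMI1 had another entry, for a later start site (250 bases before it at chr10:22321706-22321955), which also held none of the 4. No pattern overlapped another. The 250 bases before the start of BMI1 (chr10:22320849-22321098, plus strand) and of CBX6 (chr22:38872217-38872466, minus strand) are shown because these are the members with a promoter entry that were higher in WT-D28, at an adjusted p below 0.05, both against WT NPCs at passage 2 and against dKO-D28. Capitals mark CACGTG at -70 and CCATTTT at -19 from the start of BMI1, and CACGTG at -121 from that of CBX6, whose other match lies after the start.
BMI1: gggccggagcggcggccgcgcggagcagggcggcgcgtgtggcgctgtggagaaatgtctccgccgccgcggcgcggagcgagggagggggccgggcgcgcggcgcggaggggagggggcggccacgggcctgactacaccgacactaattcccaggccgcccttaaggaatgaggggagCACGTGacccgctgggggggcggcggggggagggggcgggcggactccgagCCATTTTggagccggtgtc
CBX6: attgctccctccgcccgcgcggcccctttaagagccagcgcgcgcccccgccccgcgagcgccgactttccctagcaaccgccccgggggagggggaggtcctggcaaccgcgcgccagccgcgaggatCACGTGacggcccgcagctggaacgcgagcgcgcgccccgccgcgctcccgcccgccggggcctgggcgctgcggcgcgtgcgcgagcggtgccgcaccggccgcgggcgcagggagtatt

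At passage 2, loss of both demethylases left the tested subunits within the error of the test. CBX8 was at 38.8 and 45.7 CPM in the WT samples, above the 24.0 and 24.8 CPM of the dKO samples. Its groups did not overlap, but the log2 fold change of -0.77 (SE 0.32, unadjusted p = 0.0291) had an adjusted p of 0.253 (edgeR's quasi-likelihood test, p adjusted by Benjamini-Hochberg over the genes tested, as are the adjusted p that follow). CBX7 had 10.4 and 19.6 against 6.76 and 10.6 CPM, and these groups overlapped. How many of all genes lie apart between the genotypes at passage 2 was not computed. CBX2, CBX6, BMI1 and RNF2 had log2 fold changes between -0.30 and 0.21, with adjusted p of 0.621 to 0.901. The thresholds of the study ask for an unadjusted p below 0.05 together with over 2-fold change. By these, 0 of 7 members were called, and 4.42% of the 13454 genes tested were. At an adjusted p below 0.05 without a minimum fold, 0 of 7 members and 2.77% of genes were called by edgeR. One member, CBX8, had an unadjusted p below 0.05, and DESeq2 called 0 members at the thresholds of the study. In bulk samples, fewer cells of a type and less RNA per cell cannot be told apart, here and in the following comparisons.

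At passage 4, CBX6 was higher and BMI1 lower in dKO NPCs. CBX6 rose from 51.1 and 63.2 CPM in WT to 79.9 and 96.4 CPM in dKO NPCs, 1.53-fold, with a log2 fold change of 0.62 (SE 0.14, adjusted p = 0.00143). BMI1 fell from 33.7 and 39.8 to 23.5 and 24.1 CPM, with a log2 fold change of -0.63 (SE 0.18, adjusted p = 0.00828). Neither pair of groups overlapped, but the share of all genes that lie apart in this way was not computed. The CBX6 call held in each of 8 other fits and with each of the 4 samples left out in turn. The BMI1 call held in the 8 other fits and was lost without WT sample 2, at -0.50.

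CBX2 stood at 90.2 and 94.9 CPM in the WT samples of passage 4 and at 115 and 118.5 CPM in their dKO counterparts (log2 fold change 0.34, SE 0.13, adjusted p = 0.0417). This call was lost in 5 of 8 other fits and whichever sample was left out, and with an offset for GC content and gene length the log2 fold change was 0.05. For CBX7, with 6.68 and 7.71 against 10.3 and 11.3 CPM, the log2 fold change of 0.57 had an adjusted p of 0.124. CBX8 (0.10, 95% interval -0.47 to 0.68) and RNF2 (0.11, -0.28 to 0.50) had small estimates with wide intervals. None of the 7 members passed the thresholds of the study, and 22.3% of genes did. At an adjusted p below 0.05, 3 of 7 members passed, against 49.6% of genes, a share near the background. Neuronal and astrocyte genes also differed between these groups, with the astrocyte list at 2019 and 2234 CPM in the WT samples against 33.7 and 41.0 CPM in the dKO samples, and the mesenchymal list at 252 and 261 against 1721 and 1741 CPM. Their part in the changes of CBX6 and BMI1 was not tested.

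At D28 the members split by direction. CBX8, CBX6 and BMI1 were lower and CBX2 was higher in dKO-D28 than in WT-D28. CBX8 had 57.7 and 62.7 CPM in WT-D28 and 15.3 and 30.8 CPM in dKO-D28. This was 2.65-fold lower, with a log2 fold change of -1.41 (SE 0.22, adjusted p = 6.18e-05), and CBX8 was the member to pass the thresholds of the study, which 24.2% of genes passed. The 2 dKO-D28 samples differed from each other by more than those of WT-D28. Without dKO sample 1 the log2 fold change was -1.98, and without dKO sample 2 it was -0.96, just short of the fold minimum.

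CBX6 fell from 114 and 118 CPM in WT-D28 to 80.2 and 81.4 CPM in dKO-D28 (log2 fold change -0.52, SE 0.13, adjusted p = 0.00242). BMI1 fell from 38.9 and 44.1 CPM to 19.9 and 26.2 CPM (-0.86, SE 0.17, adjusted p = 0.000388). CBX2 rose 1.79-fold, from 100 and 108 CPM to 165 and 207 CPM (0.84, SE 0.12, adjusted p = 2.3e-05). For these 3 genes and CBX8, both samples of a genotype lay on the same side of both samples of the other. How many of all genes do so was not computed. Each of the calls of CBX2, CBX6, CBX8 and BMI1 at an adjusted p below 0.05 held in the 8 other fits. With a sample left out, their log2 fold changes kept their signs. They lay at 0.67 to 0.99 for CBX2, -0.54 to -0.50 for CBX6, -1.98 to -0.96 for CBX8 and -1.07 to -0.67 for BMI1.

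The remaining D28 calls were less stable. CBX7 had 15 and 16.2 CPM in WT-D28 and 7.53 and 10.9 CPM in dKO-D28 (log2 fold change -0.77, SE 0.25, adjusted p = 0.0169), and the call was lost with DESeq2, with the GC and length offset, and without any of 3 of the 4 samples. RNF2 rose from 33.1 and 34.6 to 44.8 and 47.1 CPM (0.44, SE 0.18, adjusted p = 0.0445), and its call was lost in 5 of 8 other fits and without any of 3 samples. At an adjusted p below 0.05, 2 members were higher and 4 lower, 6 of 7 in all, against 54.2% of genes (27.5% higher and 26.7% lower). The median over the 7 tested members was -0.52, and that over the tested genes was 0.00. Proliferation genes summed to 475 and 494 CPM in WT-D28 and 1612 and 2075 CPM in dKO-D28, with 8 of 8 higher in dKO-D28 at an adjusted p below 0.05. Neuron genes summed to 4532 and 4538 CPM in WT-D28 and 675 and 1248 CPM in dKO-D28, with RBFOX3 between 2.7 and 4.6 CPM in the 4 samples. Astrocyte genes summed to 417 and 420 CPM in WT-D28 and to 33.2 and 38.8 CPM in dKO-D28. The part of these differences in the values of the members was not tested.

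**Figure D3:**
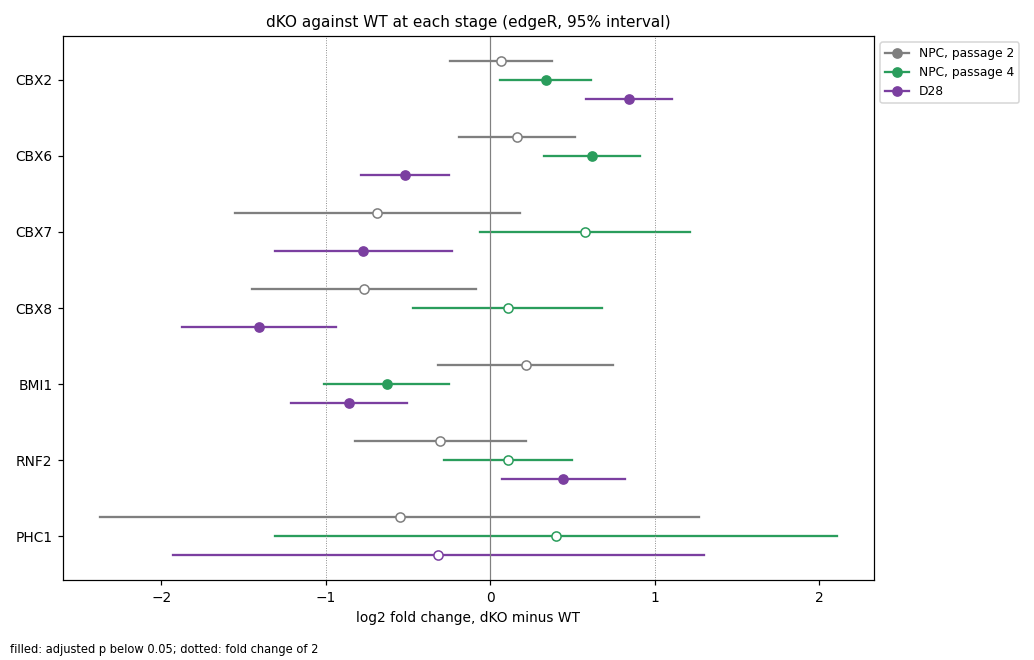
Log2 fold change of dKO over WT (horizontal axis) with its 95% interval for the tested members, at passage 2 (grey), passage 4 (green) and D28 (purple); filled points have an adjusted p below 0.05 and dotted lines mark a fold change of 2. CBX2 lay above 0 and CBX8, CBX6 and BMI1 below 0 at D28, whereas the passage 2 points are open.

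Between WT NPCs at passage 2 and WT-D28, CBX2, CBX6, BMI1 and RNF2 differed at an adjusted p below 0.05, as did 46.2% of all genes tested. Of these 4 calls, only that of CBX2 held in each of the 8 other fits. From WT NPCs at passage 2 to WT-D28, CBX2 fell from 145 and 152 CPM to 100 and 108 CPM (log2 fold change -0.52, SE 0.14, adjusted p = 0.00574). CBX6 rose from 76.8 and 83.6 CPM to 114 and 118 CPM (0.54, SE 0.15, adjusted p = 0.00743). BMI1 rose from 23.5 and 28.3 CPM to 38.9 and 44.1 CPM (0.65, SE 0.21, adjusted p = 0.0201). RNF2 fell from 40.5 and 58.1 CPM to 33.1 and 34.6 CPM (-0.59, SE 0.22, adjusted p = 0.0352). In each of these 4 genes the groups did not overlap, but the share of all genes that lie apart in this way was not computed. This comparison shares the WT-D28 samples with that of the genotypes at D28, so the values of the 2 comparisons are not independent.

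None of the 4 changes reached a fold of 2, and 0 of 7 members were called at the thresholds of the study, against 24.4% of genes. At an adjusted p below 0.05 it was 4 of 7 members, 2 in each direction, against 46.2% of genes (23.2% higher and 22.9% lower). The CBX2 call held in 8 of 8 other fits and the BMI1 call in 7, but they were lost without any of 2 and 3 of the 4 samples. The CBX6 call was lost with the GC and length offset (0.32, adjusted p = 0.112) and the RNF2 call in 5 of 8 fits. Without WT NPC sample 2 the value for RNF2 was -0.26. CBX8 went from 38.8 and 45.7 to 57.7 and 62.7 CPM, and its log2 fold change of 0.53 had an adjusted p of 0.102. The passage 2 libraries held 756942 and 1328252 counts and those of WT-D28 8813561 and 10601172, so depth moved with the comparison. Proliferation genes summed to 2044 and 2121 CPM in WT NPCs at passage 2, and 8 of 8 were lower in WT-D28. The part of either in the changes of the members was not tested.

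In dKO cells, the same interval left the members within error. From dKO NPCs at passage 2 to dKO-D28, 0 of 7 members were called at the thresholds of the study and 0 of 7 at an adjusted p below 0.05, where edgeR called 7.14% and 9.55% of genes. No member had an unadjusted p below 0.05, and DESeq2 called 0 members at the thresholds of the study. The nearest were CBX2 with a log2 fold change of 0.26 (95% interval -0.02 to 0.54) and BMI1 with -0.42 (-0.87 to 0.03). Without dKO-D28 sample 1, CBX2 was at 0.41 and CBX8 at -0.68, so these estimates depended on that sample.

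The difference between the genotypes in this interval was tested as its own contrast. For CBX2 the change in dKO minus that in WT was 0.78 (SE 0.19, adjusted p = 0.00557), for CBX6 it was -0.68 (SE 0.21, adjusted p = 0.021), and for BMI1 it was -1.07 (SE 0.30, adjusted p = 0.013). BMI1 passed the thresholds of the study, as did 23.2% of genes, and the 3 of 7 members at an adjusted p below 0.05 compare with 30.1% of genes. The CBX2 call held in the 8 other fits and with each of the 8 samples left out in turn, and the BMI1 call failed once, without dKO NPC sample 1. The CBX6 call was lost in 3 of 8 other fits, among them the GC and length offset, where it was -0.49, and without any of 3 of the 8 samples (WT-D28 sample 1, WT NPC sample 2 and dKO NPC sample 2). For RNF2 the difference was 0.75 (adjusted p = 0.0737) and for CBX8 -0.64 (adjusted p = 0.24). The CBX8 value depended on which dKO-D28 sample was kept, at -1.21 without sample 1 and -0.20 without sample 2.

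**Figure D4:**
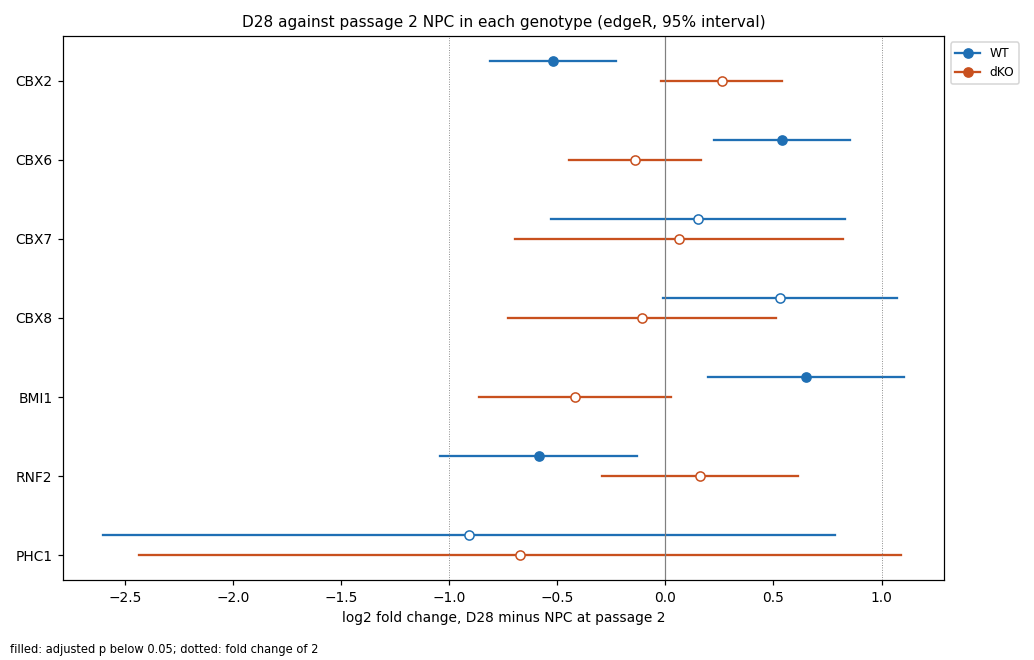
Log2 fold change from passage 2 NPCs to D28 (horizontal axis) with its 95% interval in WT (blue) and dKO (orange) cells for the tested members; filled points have an adjusted p below 0.05. In WT, CBX2 and RNF2 lay below 0 and CBX6 and BMI1 above 0, and the dKO points are open.

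Between passages 2 and 4, CBX8 fell in WT NPCs. It went from 38.8 and 45.7 CPM to 16.7 and 17.0 CPM, 2.47-fold, with a log2 fold change of -1.30 (SE 0.30, adjusted p = 0.00291), and the call held in the 8 other fits and with each of the 4 samples left out. CBX8 was the 1 member of 7 past the thresholds of the study, with 19.8% of genes. CBX2 fell from 145 and 152 CPM to 90.2 and 94.9 CPM (-0.69, SE 0.14, adjusted p = 0.00135), also in the 8 other fits and without any 1 sample. CBX6 fell from 76.8 and 83.6 to 51.1 and 63.2 CPM (-0.47, SE 0.16, adjusted p = 0.0292), but this call was lost in 4 of 8 other fits. CBX7 had a log2 fold change of -0.96 with an adjusted p of 0.0512, and BMI1 one of 0.48 with an adjusted p of 0.102. At an adjusted p below 0.05, 3 of 7 members and 38.1% of genes changed. The neuronal genes of the passage 4 samples moved with this comparison, as did the astrocyte list, from 105 and 136 CPM to 2019 and 2234 CPM, and their part in it was not tested.

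In dKO NPCs, CBX2 fell over the same passages from 139 and 172 CPM to 115 and 118.5 CPM (log2 fold change -0.41, SE 0.13, adjusted p = 0.0412), a call that was lost with DESeq2, with genes kept at 1 count in any sample, and without any of 3 samples. It was the 1 member of 7 past an adjusted p of 0.05, with 19.6% of genes, and 0 members passed the thresholds of the study, with 9.83% of genes. CBX8 had 24.0 and 24.8 CPM at passage 2 and 16.6 and 19.6 CPM at passage 4 (-0.43, SE 0.30, adjusted p = 0.347). As a contrast of the 2 genotypes, CBX7 differed by 1.26 (SE 0.51, unadjusted p = 0.0243) and passed the thresholds of the study, with 19.3% of genes, but its adjusted p was 0.0855. The differences of CBX8 (0.87, adjusted p = 0.149) and BMI1 (-0.84, adjusted p = 0.0588) also missed an adjusted p of 0.05, which 0 of 7 members and 23.1% of genes reached.

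The balance of CBX2, CBX6, CBX7 and CBX8 can be read as shares of their summed level per kilobase. In WT NPCs at passage 2, CBX2 held 54.1% ± 3.81 of the sum (SD, n = 2), CBX8 21.1% ± 1.69, CBX6 20.7% ± 0.485 and CBX7 4.12% ± 1.64. In dKO NPCs at passage 2, CBX2 held 59.98% ± 1.46 and CBX8 13.05% ± 1.37. In WT-D28, CBX2 held 37.0% ± 0.435, CBX8 29.5% ± 0.541 and CBX6 29.3% ± 0.576. In dKO-D28, CBX2 held 65.8% ± 7.37, CBX6 20.4% ± 0.729 and CBX8 11.4% ± 5.88 (SD, n = 2). The share of CBX2 was thus lower in both WT-D28 samples than in each of the other 10, and that of CBX8 was higher. The summed level was 48.1 and 50.9 CPM per kb in WT-D28 and 48.1 and 51.4 CPM per kb in dKO-D28, so the sums of these groups overlapped. The shares of CBX2, CBX6, CBX7 and CBX8 did not overlap, with CBX7 at 3.95% and 4.51% in WT-D28 and at 3.04% and 1.96% in dKO-D28. CBX7 held between 1.96% and 5.28% over the 12 samples. The ratio of CBX2 to CBX8 per kilobase was 1.25 and 1.26 in WT-D28, 3.91 and 9.87 in dKO-D28, and 2.31 and 2.85 in WT NPCs at passage 2. It was 4.205 and 5.05 in dKO NPCs at passage 2, within the range of dKO-D28, and 3.87 and 4.13 in WT NPCs at passage 4. RNF2 over BMI1, the ligase over its partner, was 0.845 and 1.00 per kilobase in WT-D28 and 1.93 and 2.67 in dKO-D28. WT NPCs at passage 2, with 1.94 and 2.31, and dKO NPCs at passage 4, with 2.23 and 2.70, overlapped dKO-D28 in this ratio. These shares and ratios are descriptions, with no test of their own.

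**Figure D5:**
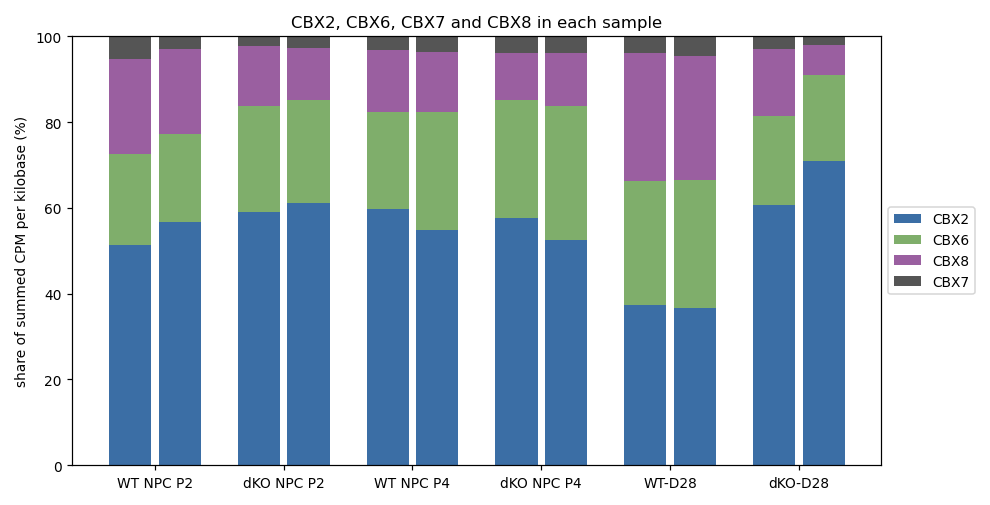
Share (%) of CBX2, CBX6, CBX7 and CBX8 in their summed CPM per kilobase of exon, 1 stacked bar per sample. CBX2 was the largest share in each bar, at 36.7% and 37.3% in WT-D28 and at 60.6% and 71.0% in dKO-D28.

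The other genes of the pathway were taken from lists of known subunits. Between genotypes, 4.42%, 22.3% and 24.2% of all genes tested passed the thresholds of the study at passage 2, passage 4 and D28. From WT NPCs at passage 2 to WT-D28, 24.4% did. Of 22 other PRC1 genes, all tested, 0 passed the thresholds of the study at passage 2. At passage 4, FBRS was higher (1.2) and AUTS2 and SCML1 were lower (-1.47 and -1.02) in dKO NPCs, and at an adjusted p below 0.05, 3 were higher and 6 lower, against 49.6% of all genes tested. At D28, SCML2 was higher (1.39) in dKO cells, with 4 higher and 5 lower at an adjusted p below 0.05, against 54.2% of all genes tested. AUTS2 and FBRS belong to variant forms of PRC1, and SCML1 and SCML2 resemble the Drosophila subunit Scm. From WT NPCs at passage 2 to WT-D28, SCML2 (-2.08) and SCML1 (-1.29) fell, with 6 higher and 3 lower at an adjusted p below 0.05, against 46.2% of all genes tested. The median of the 22 log2 fold changes was -0.049, -0.10 and -0.049 in the comparisons of genotypes at passage 2, passage 4 and D28, beside medians of 0.00, 0.02 and 0.00 over the genes tested.

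Of 12 PRC2 genes, 10 were tested. At passage 2 and D28, 0 of them passed the thresholds of the study, against 4.42% and 24.2% of all genes tested. At passage 4, the accessory subunit JARID2 was higher (1.3) and PHF19 lower (-1.26) in dKO NPCs, where 22.3% of all genes tested passed. At D28, 6 of 10 were higher and 2 lower in dKO cells at an adjusted p below 0.05, against 27.5% and 26.7% of all genes tested. EZH2, the methyltransferase that writes H3K27me3, had 76.1 and 78.7 CPM in WT-D28 and 128 and 154 CPM in dKO-D28, beside the proliferation genes given above. Of the 6 subunits and enzymes that remove ubiquitin from H2A, ASXL3 alone passed the thresholds of the study in a comparison of genotypes. It was lower at passage 4 (-1.26), where 22.3% of all genes tested passed. The HP1 genes CBX1, CBX3 and CBX5, whose chromodomain reads methylated lysine 9 instead, did not pass these thresholds in the comparisons of genotypes. Of all genes tested, 4.42%, 22.3% and 24.2% did at passage 2, passage 4 and D28.

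Among 4 cell cycle inhibitors listed as targets, CDKN2B, which lies beside CDKN2A, was higher in dKO cells at passage 4 and D28, with a less stable call at passage 2. Its levels at passage 2 were 2.61 and 14.2 CPM in the WT samples and 25.5 and 43.8 CPM in the dKO samples (log2 fold change 1.83, adjusted p = 0.048), 3.01 and 3.85 against 55.5 and 56.9 CPM at passage 4 (4.0, adjusted p = 8.6e-07), and 2.16 and 2.42 against 9.65 and 15.8 CPM at D28 (2.43, adjusted p = 8.51e-05). The passage 2 call at an adjusted p below 0.05 was lost with the GC and length offset (adjusted p = 0.0553), with the replicate block (0.0547) and with both (0.0656). It was also lost without WT sample 1 and without dKO sample 2. Its log2 fold change lay between 1.297 and 3.72 with a sample left out. CDKN2A, at 5.9 CPM or less in each sample, was not tested, as its mean count of 14.5 lay under the minimum of 20. At D28 it was lower in dKO cells, opposite to CDKN2B, with 5.881 and 3.722 CPM in WT-D28 against 0.9696 and 0.386 CPM in dKO-D28. These dKO-D28 values rest on 4 and 2 counts. It was also lower in dKO NPCs at passage 4 (5.345 and 5.394 against 3.748 and 4.414 CPM). At passage 2 it was not lower in dKO NPCs (0 and 1.491 against 1.501 and 4.95 CPM). CDKN1A was higher (1.3) and CDKN2C lower (-4.33) in dKO NPCs at passage 4. With the GC and length offset, FBRS, SCML1, ASXL3 and CDKN1A at passage 4 stayed past an adjusted p of 0.05 but fell under a fold of 2. Of the 4 inhibitors, 3 were tested, and 1, 3 and 1 of them passed the thresholds of the study at passage 2, passage 4 and D28, against 4.42%, 22.3% and 24.2% of all genes tested.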

How the data were processed

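RNA from 12 samples had been extracted with TRIzol, made into libraries with a TruSeq RNA kit and sequenced on a NextSeq 500. The authors aligned reads to hg38 with HISAT2 2.0.4, used SAMtools 1.3.1, and counted reads per Ensembl gene with HTSeq 0.6.0. For its own calls, the study adjusted for GC content and gene length with EDASeq and tested with DESeq. Here its thresholds were applied to another normalization and test, and an offset for GC content and length stands among the alternatives. The deposited values are raw counts for 58302 genes, and the annotation release, the strand setting and the contigs of the index are not given in the sources used here. Groups came from the labels. The members and the gene lists were chosen with earlier results of these data known. One gene of these lists is not reported here, and the list counts leave it out. Counts were scaled by TMM and tested in R 4.3.3 with edgeR 4.0.16 (robust quasi-likelihood, 6 group means, one shared estimate of the spread), for the 13454 genes whose mean count was 20 or more. Calls used the study's unadjusted p below 0.05 with a fold change above 2, and, second, a Benjamini-Hochberg adjusted p below 0.05. Named were the members, the knockout targets and listed genes past the first rule; EZH2, RPS18, PSMB3, EPOP, RPL23, M6PR and PHC1P1 were named after their values were seen. The exact permutation p of 2 against 2 samples cannot go below 0.333. GENCODE v44 gave symbols, coordinates and exon lengths. Exon windows of 75 bases, every 25 bases, were matched exactly to hg38. Alternatives were DESeq2 1.42.0, RLE size factors, other thresholds and filters, GC and length offsets, a replicate block and leaving out each sample. Steps were tested on simulated data. Levels, shares and sequence matches were computed in Python 3.11.15.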

Additional observations from a re-analysis of the deposited data

Results flagged for a closer look

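In total, 4 differences between the genotypes were flagged among the 7 tested members by a test of the difference itself, within the same edgeR fit. Flagged were those past an adjusted p of 0.05 or past the thresholds of the study. Over differentiation, 30.1% of all genes tested passed the first rule and 23.2% the second. Over passages, 23.1% and 19.3% did, and CBX7 passed the second rule alone. Over differentiation from passage 2 NPCs to D28, the log2 fold change of CBX2 in dKO cells minus that in WT cells was 0.78 (adjusted p = 0.00557), that of CBX6 was -0.68 (adjusted p = 0.021) and that of BMI1 was -1.07 (adjusted p = 0.013). With a sample left out the CBX2 value lay between 0.61 and 0.94, the CBX6 value between -0.78 and -0.57, and the BMI1 value between -1.27 and -0.87. At an adjusted p below 0.05 the CBX6 call was lost without any of 3 of the 8 samples and in 3 of 8 other fits, and the BMI1 call without 1 sample. Between passages 2 and 4, the difference for CBX7 was 1.26, with an unadjusted p of 0.0243 and an adjusted p of 0.0855. It lay between 0.83 and 1.74 with a sample left out, and rested on 6.68 to 19.6 CPM per sample.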

How the results depend on the processing

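The number of members called at the thresholds of the study moved mostly with the threshold. With an adjusted p below 0.05 and no minimum fold it went from 0 to 3 at passage 4 (dKO against WT), from 1 to 6 at D28, from 0 to 4 from WT NPCs at passage 2 to WT-D28, from 1 to 3 between the passages of WT NPCs, from 0 to 1 between those of dKO NPCs, from 1 to 3 in the difference between genotypes over differentiation, and from 1 to 0 in that over passages. The last was also 0 with an adjusted p and a fold above 2, with DESeq2, with 10 or more counts demanded of every sample, and with the offset for GC content and gene length alone or with the replicate block. That offset called 2 members at D28, alone or with the block, CBX8 and BMI1 (log2 fold change -1.03). With genes kept at 1 count in any sample, 1 member was called from dKO NPCs at passage 2 to dKO-D28 and 1 between the passages of dKO NPCs, in both cases PCGF2, whose counts are not a measurement here. Genes called numbered 595 at passage 2, but 199 with an adjusted p and fold above 2, 373 with an adjusted p alone, 1177 with at least 1 count in any sample and 199 with at least 10 in every sample. For the other comparisons the 1-count and 10-count filters gave 5131 and 1656 in place of 3001 at passage 4, 6037 and 1882 in place of 3250 at D28, 5609 and 1909 in place of 3281 from WT NPCs to WT-D28, 2684 and 350 in place of 961 from dKO NPCs to dKO-D28, 4482 and 1461 in place of 2663 between WT passages, and 2939 and 588 in place of 1322 between dKO passages. The adjusted p alone gave 6672, 7287, 6212, 5128 and 2635 for passage 4, D28, WT differentiation, WT passages and dKO passages. The differences between genotypes went from 3119 to 2000 over differentiation and from 2595 to 1592 over passages under the 10-count filter. The 1-count filter shifted the median of all genes to 0.16 in the comparison of WT-D28 with WT NPCs, against 0.04 otherwise. Where counts fell with a filter, fewer genes were tested; other causes were not tested.

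Leaving out each sample in turn gave 458 to 927 genes called at passage 2, and 0 to 1 members there, 0 to 3 at D28, 0 to 1 in dKO differentiation, 1 to 2 between WT passages, 0 to 1 between dKO passages, and 0 to 2 in each of the 2 differences between genotypes. The direction turned in estimates that were not called. These ranged, with a sample left out, from -0.50 to 0.025 (RNF2), -2.24 to 0.45 (PHC1) and -0.10 to 0.21 (CBX2) at passage 2, from -0.16 to 0.46 (RNF2) and -0.018 to 0.22 (CBX8) at passage 4, from -0.33 to 0.58 (CBX7) and -1.41 to 0.092 (PHC1) in WT differentiation, from -0.22 to 0.43 (CBX7), -0.68 to 0.34 (CBX8) and -1.44 to 1.012 (PHC1) in dKO differentiation, from -0.43 to 0.26 (RNF2) between WT passages, from -1.27 to 1.18 (PHC1) and -0.16 to 0.11 (CBX6) between dKO passages, and from -0.52 to 0.39 (CBX7) and -0.77 to 1.92 (PHC1) in the difference over differentiation, with PHC1 at -0.052 to 2.63 in that over passages. With the offset, alone and with the block, CBX8 at passage 4 was -0.14 and -0.14, CBX7 in WT differentiation -0.043 and -0.043, and CBX7 in the difference over differentiation 0.084 and 0.080. RNF2 between WT passages was 2e-04 with the 1-count filter, and CBX6 between dKO passages 0.0087 and 0.0017 with the 1-count and 10-count filters. The cause of these turns was not tested.

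The replicate numbers of the labels showed no pairing of the samples across the 6 groups as a whole. Samples with the same number deviated from the means of their groups with a correlation of 0.018 on average over 15 pairs of groups, and 1 pair lay above 0.1. This pair was WT and dKO NPCs at passage 4, at 0.194. The average cannot exclude a pairing within 1 stage. With the replicate block, 615 genes were called at passage 2, 3012 at passage 4 and 3241 at D28, with 0, 0 and 1 members, and the block alone changed no call of a member. Having 2 samples a group limits the precision, and the passage 2 libraries, at 756942 to 1438807 counts, carry the largest counting error.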
